A study of Homo sapiens with 27 samples.

Results

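miR-221 and miR-222 are microRNAs (miRNAs), short RNAs that guide Argonaute proteins to messenger RNAs and lower their output. Each is cut from a hairpin with a 5p and a 3p arm, and both hairpins come from the same primary transcript. The 3p arms are the strands usually loaded as guides, and they are known for repressing KIT, the receptor for stem cell factor, and CDKN1B (p27), an inhibitor of the cell cycle. In blood formation their levels are known to fall as erythroid cells mature, and in many tumours they are abundant. The 4 mature miRNAs described here, miR-221-3p, miR-221-5p, miR-222-3p and miR-222-5p, were taken by name from the count tables of a study of USB1, a 3′ exonuclease that trims U6 RNA and removes adenosines from RNA ends. The tables list them as hsa-miR-221-3p, hsa-miR-221-5p, hsa-miR-222-3p and hsa-miR-222-5p. They are 4 of 2276 mature miRNAs listed in any table, and each of the 9 tables, 1 for each group, lists all 4.

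Small RNA was sequenced from 27 samples in 9 groups of 3 libraries, 15 of the human embryonic stem cell (hESC) line H1 and 12 of K562, a line from chronic myelogenous leukaemia. The hESC groups were a USB1 mutant made by genome editing and picking of cells, the same mutant carrying a doxycycline-inducible wild-type USB1 (iUSB1-WT) without Dox and with Dox, the mutant with hairpins against PAPD5 (shPAPD5), and wild type (WT). PAPD5, a poly(A) polymerase, tails the 3′ ends of non-coding RNAs with adenosines. All hESC groups other than WT carried the USB1 mutation, and iUSB1-WT and shPAPD5 were placed at the AAVS1 locus. The K562 groups were USB1 KO, made from single clones, Control_shPARN, USB1 KO_shPARN and Control, where PARN is a nuclease that shortens such tails. A hairpin without a target is named for no group, so an effect of a knockdown cannot be told apart from an effect of introducing a hairpin. Likewise, the mutant cells were picked and USB1 KO came from single clones. In comparisons with WT or Control an effect of USB1 loss thus cannot be told apart from a difference between clones. USB1, PAPD5 and PARN RNA are not measured by these libraries.

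Of the 4 miRNAs, 3 have a mature sequence in the RefSeq annotation of GRCh38.p14. They are shown 5′ to 3′ because the seed, bases 2 to 8 in capitals, decides which messenger RNAs a miRNA can pair with.
miR-221-3p: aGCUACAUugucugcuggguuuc
miR-222-3p: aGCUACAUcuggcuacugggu
miR-222-5p: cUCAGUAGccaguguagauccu

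The 3p arms had the same first 8 bases and hence the same seed, GCUACAU, which no other of the 2370 mature miRNAs in the annotation carried. Set side by side from the 5′ end without gaps, the 23 bases of miR-221-3p and the 21 of miR-222-3p are identical at 11 positions in all. That count does not line up stretches shared at an offset, such as CUGGGU near the 3′ end of both. The seed of miR-222-5p, UCAGUAG, belonged to that name alone. The hairpins are shown next, with the 3p arm in capitals, because their place and arms fix which counts can be set side by side.
MIR221: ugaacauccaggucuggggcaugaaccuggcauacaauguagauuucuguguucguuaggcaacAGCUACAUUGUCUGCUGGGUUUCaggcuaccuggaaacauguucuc
MIR222: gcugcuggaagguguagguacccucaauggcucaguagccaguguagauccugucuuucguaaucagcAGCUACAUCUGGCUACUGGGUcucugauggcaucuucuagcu

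Both lie on the minus strand of chromosome X, MIR221 at chrX:45746157-45746266 and MIR222 at chrX:45747015-45747124, with 748 bases between them. The mature arms lie at chrX:45746180-45746202 (miR-221-3p), chrX:45747036-45747056 (miR-222-3p) and chrX:45747073-45747094 (miR-222-5p). Both hairpins lie within the non-coding gene MIR222HG (chrX:45745210-45770274, minus strand, GENCODE 44), in an intron of its transcript MIR222HG-201, and 24 bases of MIR221 overlap an exon of another transcript, MIR222HG-203. These positions come from the annotation. The count tables hold miRNA names only.

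Between 12258450 and 35734485 miRNA counts were available per hESC library, and between 1530929 and 13183152 per K562 library, where USB1 KO library 3 was the shallowest. Summed markers of pluripotent cells (the miR-302, miR-367 and miR-371 to miR-373 guides, 8 names) were 178501 to 397742 CPM (a library's counts scaled to 1000000 in all) over the hESC libraries. The range was 230763 to 397742 CPM in USB1 mutant, 216148 to 274799 CPM without Dox, 217603 to 256365 CPM with Dox and 185326 to 250374 CPM in shPAPD5 libraries, against 178501 to 192802 CPM in WT libraries, so only shPAPD5 overlapped WT. In USB1 mutant against WT edgeR called 4 of the 8 higher and 3 lower, where 7.41% of all 998 miRNAs were called in either direction. Among the mutant libraries, library 1 had a sum of 397742 CPM, against 235724 and 230763 CPM in libraries 2 and 3. WT library 1 stood apart from libraries 2 and 3 in 3 of these markers, with 6562 CPM of miR-372-3p against 398 and 375 CPM, and with miR-371a-3p and miR-373-3p likewise high. In K562 the summed markers were 782, 829 and 8.71 CPM in K562 Control libraries 1, 2 and 3, against 0.653 to 19.2 CPM in the other K562 libraries, so Control libraries 1 and 2 stood apart from their line and differences from Control are also given without both. These sums cover the names listed for each group, 8 in Control, 4 in USB1 KO, 3 in Control_shPARN and 4 in USB1 KO_shPARN. A name without a count in a group's first library is not listed, so its counts in libraries 2 and 3 are unknown. Summed erythroid and blood markers (7 names) were 93.7 to 341 CPM in hESCs and 6608 to 11620 CPM in K562. Summed fibroblast or feeder markers (7 names) ranged widely in K562, with 1360, 1671 and 6145 CPM in USB1 KO libraries 1, 2 and 3, and 12774, 1383 and 544 CPM in USB1 KO_shPARN libraries 1, 2 and 3. Summed endothelial markers (miR-126-3p and miR-126-5p) were 456 to 750 CPM in hESCs and 6824 to 30509 CPM in K562. The part of any marker in the results was not tested.

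Levels below are CPM after TMM scaling. It rescales each library by a trimmed mean of log ratios to a reference library, taking most miRNAs as unchanged. Changes are log2 fold changes with standard error (SE) from edgeR's quasi-likelihood test over all libraries of the line. A miRNA was called when its p, adjusted by the Benjamini-Hochberg method over all miRNAs tested, was under 0.05. All 4 passed the filter on low counts among the 998 miRNAs tested in hESCs and the 881 tested in K562. Because a mature miRNA is read whole, no length scaling was needed between them, but unequal capture of different sequences by the library kit is not corrected.

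In hESCs the 3p arms were among the abundant miRNAs. miR-221-3p averaged 4046 CPM over the 15 libraries, rank 19 of 998, and miR-222-3p averaged 3466 CPM, rank 22. miR-221-5p averaged 396 CPM, rank 81, and miR-222-5p averaged 3.99 CPM, rank 525. In K562 the order was the same at lower levels. There miR-221-3p averaged 441 CPM over the 12 libraries, rank 100 of 881, and miR-222-3p 422 CPM, rank 103. miR-221-5p averaged 107 CPM, rank 184, and miR-222-5p 2.32 CPM, rank 611. The 3p arms of the pair lay close to each other within both lines, whereas the 5p arm of miR-221 was far above that of miR-222.

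**Figure D1:**
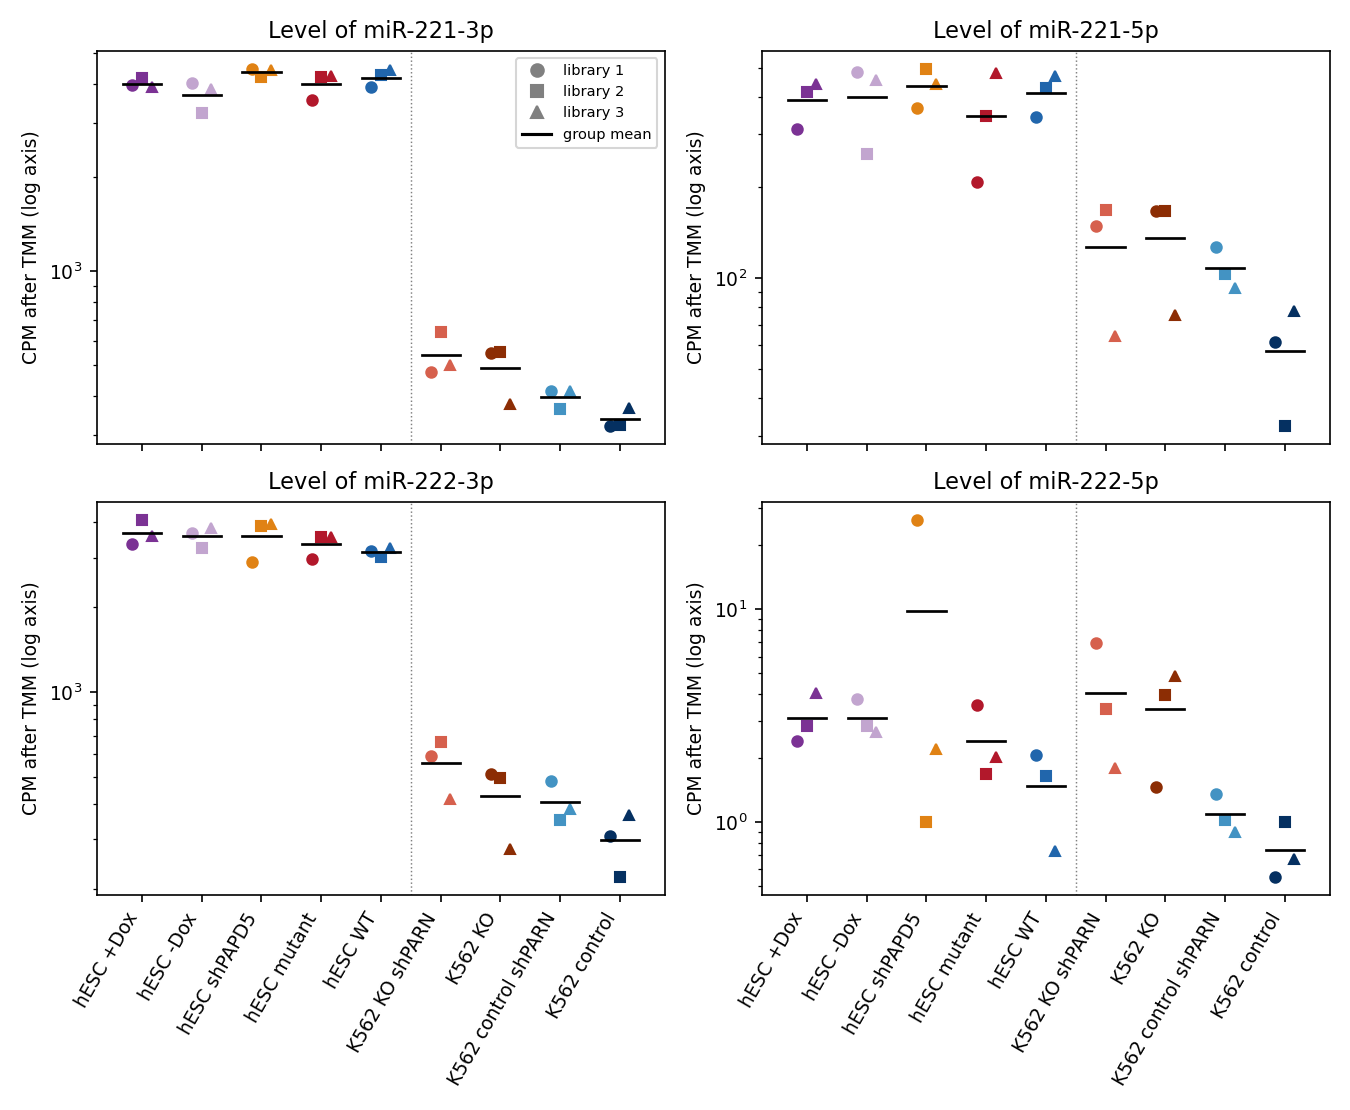
Level of each miRNA in CPM after TMM scaling (log axis) in 9 groups of 3 libraries, hESC groups on the left and K562 groups on the right of the dotted line. Points are libraries, shaped by library number, and bars are group means. The miR-221-3p points lie at 3214 to 4466 CPM in hESCs and at 320 to 639 CPM in K562, while for miR-222-5p library 1 of shPAPD5 stands alone at 26.4 CPM.

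The comparison of WT hESCs with Control K562 cells, fitted on the WT, USB1 mutant, Control and USB1 KO libraries together, called all 4 miRNAs higher in hESCs. Of the 905 miRNAs tested in it 62.7% were called in either direction, and 32.4% were called higher. In this fit miR-221-3p averaged 6243 ± 547 CPM in WT hESCs and 238 ± 24.0 CPM in Control K562 cells (SD, n = 3 each), a log2 difference of 4.71 (SE 0.22, edgeR adjusted p = 3.46e-10). miR-222-3p averaged 4693 ± 177 CPM in WT hESCs and 211 ± 55.5 CPM in Control K562 cells, a log2 difference of 4.47 (SE 0.28, adjusted p = 5.9e-09). The guides of the pair thus stood 26.2-fold and 22.2-fold above their K562 levels.

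The 5p arms were also higher in WT hESCs. miR-221-5p averaged 618 ± 111 CPM in WT hESCs and 40.6 ± 17.1 CPM in Control K562 cells (log2 3.93, SE 0.43, adjusted p = 1.62e-06). miR-222-5p averaged 2.19 ± 0.977 CPM in WT hESCs and 0.522 ± 0.157 CPM in Control K562 cells (log2 2.10, SE 0.55, adjusted p = 0.00425). The 3 libraries of each line did not overlap for any of the 4, as for 70.8% of all miRNAs tested. Scaling matters between lines. With library totals in place of TMM the median of all tested miRNAs stood at -1.26 rather than -0.07, and the differences were 3.53 for miR-221-3p, 2.76 for miR-221-5p, 3.31 for miR-222-3p and 0.96 for miR-222-5p, the last no longer called (adjusted p = 0.185). Without Control libraries 1 and 2 the values were 4.56, 3.46, 4.15 and 2.17 in the same order, and miR-222-5p again missed the threshold (adjusted p = 0.0564). Without WT library 1 they were 4.83, 4.11, 4.54 and 1.87, and all 4 were called.

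The mutant and WT hESCs were compared to ask how USB1 loss alters miRNAs before differentiation. None of the 4 was called, while 7.41% of all 998 miRNAs were. miR-221-3p had 3544, 4196 and 4243 CPM in USB1 mutant libraries, against 3886, 4246 and 4410 CPM in WT libraries. The log2 change was -0.07 (SE 0.14, adjusted p = 0.814), with a 95% interval of -0.33 to 0.20. miR-222-3p had 2970, 3550 and 3541 CPM in USB1 mutant libraries, against 3170, 3028 and 3241 CPM in WT libraries, a log2 change of 0.09 (SE 0.15, adjusted p = 0.766) with an interval of -0.21 to 0.39. The groups overlapped for both guides, and their intervals together span -0.33 to 0.39 on the log2 scale.

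The 5p arms were measured less precisely. miR-221-5p had 209, 344 and 479 CPM in USB1 mutant libraries, against 342, 427 and 471 CPM in WT libraries. Its log2 change was -0.26 (SE 0.27, adjusted p = 0.604), with an interval of -0.80 to 0.27, and mutant library 1 was the lowest of the 15 hESC libraries. miR-222-5p rested on 54, 56 and 27 counts in USB1 mutant libraries, or 3.54, 1.69 and 2.02 CPM, against 38, 26 and 10 counts, or 2.06, 1.65 and 0.729 CPM, in WT libraries. Its change of 0.67 (SE 0.96, adjusted p = 0.733) had an interval of -1.21 to 2.55, and the spread behind it is shared with the shPAPD5 libraries, where this miRNA had 19 to 389 counts. Without WT library 1 the 4 differences of the mutant were -0.13 for miR-221-3p, -0.40 for miR-221-5p, 0.080 for miR-222-3p and 0.96 for miR-222-5p, and none was called. Leaving out any single library of either group, the range was -0.13 to 0.0079 for miR-221-3p and -0.60 to -0.0070 for miR-221-5p. For miR-222-3p it was 0.034 to 0.17 and for miR-222-5p 0.28 to 0.96, with none called.

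Re-expression of USB1 was examined with Dox against without Dox, and each against WT. With Dox miR-221-3p had 3951, 4154 and 3891 CPM, against 4013, 3214 and 3837 CPM without Dox. miR-222-3p had 3363, 4091 and 3573 CPM with Dox, against 3666, 3249 and 3818 CPM without. The Dox groups overlapped for both guides, and the log2 differences were 0.12 (SE 0.14) for miR-221-3p and 0.04 (SE 0.15) for miR-222-3p.

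miR-221-5p had 313, 414 and 441 CPM with Dox, against 484, 258 and 456 CPM without Dox (-0.04, SE 0.27). miR-222-5p had 2.40, 2.82 and 4.06 CPM with Dox, against 3.77, 2.84 and 2.66 CPM without Dox (-0.01, SE 0.90). The edgeR adjusted p were 0.994 for the first 3 and 0.998 for miR-222-5p. In this comparison edgeR called 0% of all 998 miRNAs, with 45 at an unadjusted p under 0.05 and 1 called by DESeq2, so the 4 miRNAs did not stand apart from the rest.

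Against WT none of the 4 was called in either iUSB1-WT group, where 4.31% (without Dox) and 8.22% (with Dox) of all miRNAs were. miR-222-3p lay above all WT libraries in both, with a log2 difference from WT of 0.19 without Dox (adjusted p = 0.588) and of 0.22 with Dox (adjusted p = 0.406), SE 0.15 in both. miR-222-5p also lay above all WT libraries in both, at 1.04 without Dox (SE 0.95, adjusted p = 0.648), while with Dox it stood at 1.03 (SE 0.96, adjusted p = 0.562). Over all miRNAs 22.6% without Dox and 30.5% with Dox did not overlap WT, and the 2 comparisons share the WT libraries. miR-221-3p stood at -0.18 without Dox (adjusted p = 0.556) and -0.06 with Dox (adjusted p = 0.830), and miR-221-5p at -0.05 (adjusted p = 0.964) and -0.09 (adjusted p = 0.901) in the same order.

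Knockdown of PAPD5 in the mutant was compared with the mutant and with WT. edgeR called 0% of all 998 miRNAs in both, with 116 and 130 at an unadjusted p under 0.05 and 8 and 21 called by DESeq2. miR-221-3p had 4466, 4204 and 4430 CPM in shPAPD5 libraries, overlapping both groups, and log2 differences of 0.13 (SE 0.14, adjusted p = 0.771) from the mutant and 0.06 (adjusted p = 0.889) from WT. miR-222-3p had 2895, 3871 and 3965 CPM in shPAPD5 libraries, or 0.09 (SE 0.15, adjusted p = 0.857) from the mutant and 0.19 (adjusted p = 0.677) from WT. miR-221-5p had 368, 496 and 441 CPM in shPAPD5 libraries, or 0.34 (SE 0.27, adjusted p = 0.672) from the mutant and 0.07 (adjusted p = 0.930) from WT. Each of these 3 arms overlapped the mutant and WT.

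miR-222-5p behaved differently in a single library. It had 26.4, 1.005 and 2.201 CPM in shPAPD5 libraries, from 389, 19 and 30 counts, and library 1 was the highest of all 27 libraries. The fit gave 2.04 (SE 0.91, adjusted p = 0.404) from the mutant and 2.71 (SE 0.95, adjusted p = 0.266) from WT. The difference from WT was the highest of the 998 tested. Without library 1 these were -0.59 (adjusted p = 0.707) and 0.07 (adjusted p = 0.982). Library 1 exceeded the mean of the other 2 by a log2 of 4.04 for miR-222-5p, the highest excess among 998 miRNAs, followed by miR-4484 with 2.74 and miR-1291 with 2.60. In the same library the other arm of the hairpin, miR-222-3p, stood at -0.44 against that mean and miR-221-5p at -0.35.

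In K562 USB1 KO was compared with Control. All 4 miRNAs had a higher mean in USB1 KO cells, and none was called by edgeR, while 5.11% of the 881 miRNAs were. miR-221-3p had 547, 552 and 376 CPM in USB1 KO libraries, against 320, 321 and 366 CPM in Control libraries. The groups did not overlap, as for 29.5% of all miRNAs, and the log2 difference was 0.55 (SE 0.18, adjusted p = 0.104), or 1.47-fold. miR-222-3p had 511, 495 and 277 CPM in USB1 KO libraries, against 308, 220 and 364 CPM in Control libraries, a log2 difference of 0.52 (SE 0.26, adjusted p = 0.306) with overlapping groups. In USB1 KO the shallow library 3 was the lowest of the 3 for both guides. Summed endothelial markers, of which 0 of 2 were called, were 13466 to 16851 CPM in USB1 KO libraries, against 27413 to 30509 CPM in Control libraries, without overlap, and their part in these differences was not tested.

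miR-221-5p had 166, 167 and 75.2 CPM in USB1 KO libraries, against 61.1, 32.3 and 77.8 CPM in Control libraries. The log2 difference was 1.26 (SE 0.42, adjusted p = 0.129), and library 3 of USB1 KO lay just under Control library 3. miR-222-5p had 1.46, 3.94 and 4.85 CPM in USB1 KO libraries, from 14, 40 and 10 counts, against 0.552, 0.996 and 0.668 CPM, from 6, 7 and 7 counts, in Control libraries. The groups did not overlap, and the log2 difference of 2.13 (SE 0.59, adjusted p = 0.0576), or 4.38-fold, was the 11th highest of 881.

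These values sit near the threshold and moved across it with the processing. DESeq2 called miR-221-3p (adjusted p = 0.0409), miR-221-5p (adjusted p = 0.0409) and miR-222-5p (adjusted p = 0.0162) higher in USB1 KO. Over all miRNAs DESeq2 made 63 calls where edgeR made 45. Without USB1 KO library 3 miR-221-3p was called at 0.72 (edgeR adjusted p = 0.0257), and without USB1 KO library 1 miR-222-5p was called at 2.56 (adjusted p = 0.0300). Without Control libraries 1 and 2, which carried the pluripotent markers, the differences were 0.41 for miR-221-3p, 0.80 for miR-221-5p, 0.22 for miR-222-3p and 2.22 for miR-222-5p, with edgeR adjusted p of 0.423 to 0.878 and the remaining Control library assumed to vary like the other groups.

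**Figure D2:**
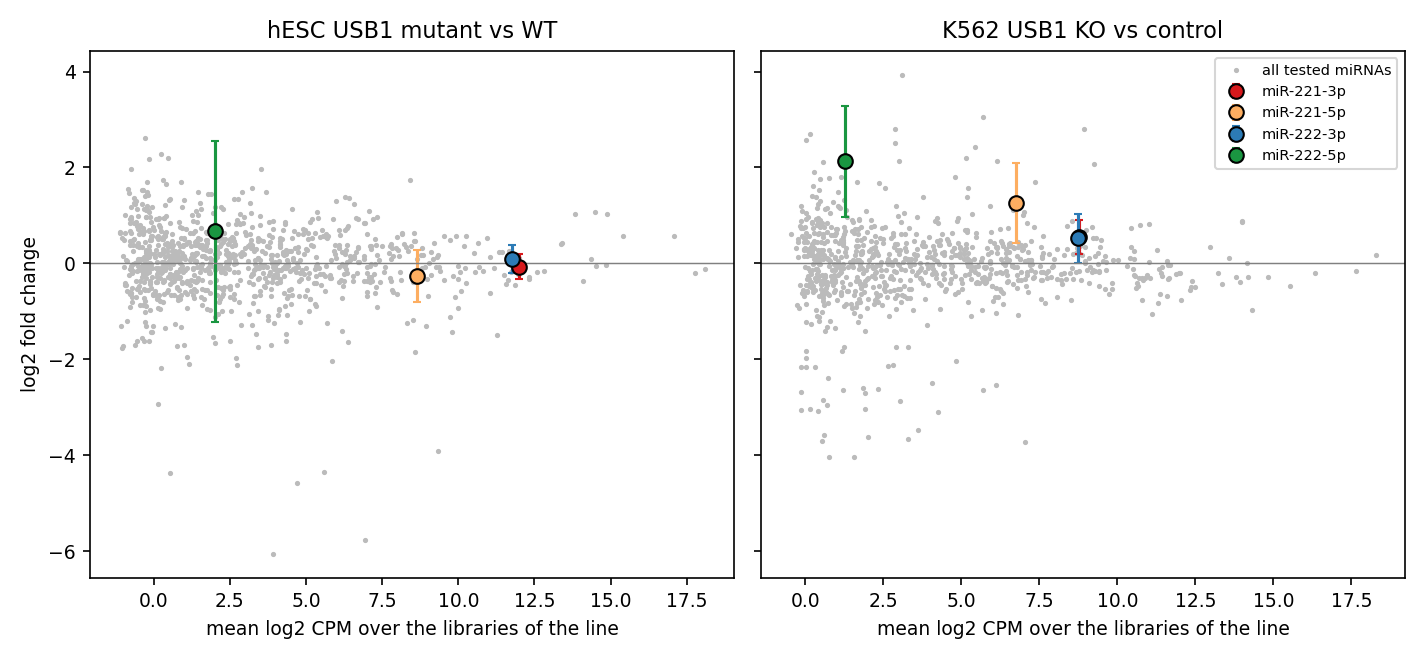
Log2 fold change of every tested miRNA (grey) and of the 4 described here (coloured, with 95% intervals) against mean log2 CPM, for USB1 mutant against WT hESCs (left) and USB1 KO against Control K562 cells (right). In hESCs the 3p arms lie at -0.07 and 0.09 with narrow intervals. In K562 all 4 lie above 0, from 0.52 for miR-222-3p to 2.13 for miR-222-5p.

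PARN knockdown was compared in both K562 backgrounds. In Control cells it gave no call among the 4, against 1.48% of all 881 miRNAs. miR-221-5p had 127, 103 and 93.0 CPM in Control_shPARN libraries, all above the 61.1, 32.3 and 77.8 CPM of Control libraries, with a log2 difference of 0.91 (SE 0.42, adjusted p = 0.374). Of all miRNAs 22.5% did not overlap in this comparison. miR-221-3p had 414, 364 and 412 CPM in Control_shPARN libraries, a log2 difference of 0.24 from Control (SE 0.18, adjusted p = 0.624). miR-222-3p had 483, 352 and 383 CPM there, a difference of 0.45 (SE 0.26, adjusted p = 0.551). miR-222-5p had 1.36, 1.02 and 0.896 CPM there, a difference of 0.60 (SE 0.60, adjusted p = 0.723). These 3 overlapped Control. Without Control libraries 1 and 2 the 4 differences lay between 0.12 and 0.71, each with an adjusted p of 0.999.

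In USB1 KO cells PARN knockdown also gave no call among the 4, against 14.8% of all miRNAs. miR-221-3p had 476, 639 and 501 CPM in USB1 KO_shPARN libraries, a log2 difference of 0.13 from USB1 KO (SE 0.18, adjusted p = 0.681). miR-221-5p had 148, 168 and 64.2 CPM there (-0.11, SE 0.41, adjusted p = 0.883). miR-222-3p had 592, 666 and 418 CPM there (0.38, SE 0.26, adjusted p = 0.373), and miR-222-5p 6.92, 3.42 and 1.80 CPM (0.34, SE 0.52, adjusted p = 0.717). The 4 overlapped USB1 KO, and the median of all miRNAs was 0.11 with TMM scaling and -0.14 with library totals, under which miR-221-3p turned to -0.11.

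USB1 KO_shPARN against Control_shPARN set knockout against control cells again, both with the PARN hairpin. The limit on telling USB1 loss from a clone difference applies to it as well. Here 1 of the 4 was called, where 9.19% of all miRNAs were and 4.99% were called higher. miR-222-5p was higher, at 6.92, 3.42 and 1.80 CPM in USB1 KO_shPARN libraries, from 60, 28 and 14 counts, against 1.36, 1.02 and 0.896 CPM, from 16, 10 and 8 counts, in Control_shPARN libraries. The log2 difference was 1.87 (SE 0.54, adjusted p = 0.0449), or 3.66-fold. The call did not hold with the replicate number as a block (1.82, adjusted p = 0.0558), and same-numbered libraries of these 2 groups deviated together. It was also lost without any single library other than USB1 KO_shPARN library 3, with 1.20 (adjusted p = 0.217) without USB1 KO_shPARN library 1, which also carried the most fibroblast or feeder markers.

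The guides pointed the same way without passing the test. miR-221-3p was higher in all USB1 KO_shPARN than in all Control_shPARN libraries (log2 0.44, SE 0.18, adjusted p = 0.133), as 30.5% of all miRNAs were without overlap. miR-222-3p overlapped between these groups (0.46, SE 0.26, adjusted p = 0.275), as did miR-221-5p (0.24, SE 0.41, adjusted p = 0.761). The interaction, which asks whether PARN knockdown altered the knockout difference, called none of the 4 and 1.82% of all miRNAs. It was -0.11 (SE 0.25) for miR-221-3p, -1.02 (SE 0.59) for miR-221-5p, -0.07 (SE 0.37) for miR-222-3p and -0.26 (SE 0.78) for miR-222-5p, with adjusted p of 0.402 to 0.940. They were -0.0043, -0.60, 0.21 and -0.38 in the same order without Control libraries 1 and 2, none called.

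The USB1 loss difference in hESCs minus that in K562 was negative for all 4, at -0.70 for miR-221-3p (SE 0.27, adjusted p = 0.256), -1.60 for miR-221-5p (SE 0.54, adjusted p = 0.166), -0.51 for miR-222-3p (SE 0.35, adjusted p = 0.672) and -1.53 for miR-222-5p (SE 0.74, adjusted p = 0.427). None was called, against 2.76% of the 905 miRNAs tested, so a different effect of USB1 loss in the 2 lines was not shown. Leaving out Control libraries 1 and 2 gave -0.45, -1.06, -0.11 and -1.48 in the same order, none called. The kind of USB1 lesion and the line cannot be told apart here.

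**Figure D3:**
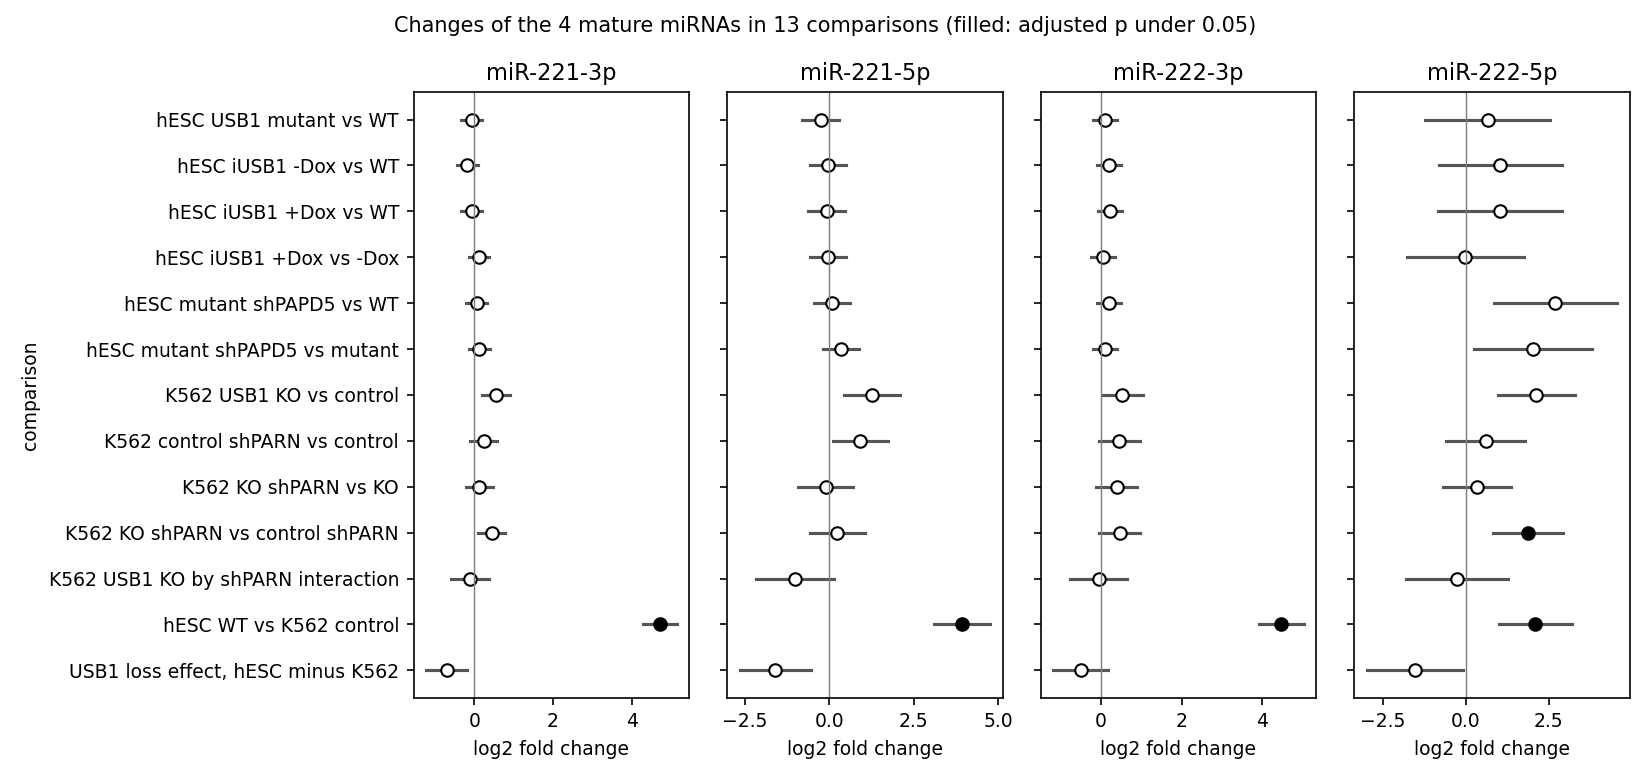
Log2 fold change with its 95% interval for each of the 4 miRNAs in 13 comparisons, filled where the adjusted p was under 0.05. The scale differs between panels. All 4 points of WT hESCs against Control K562 cells are filled, from 2.10 to 4.71, and the only other filled point is miR-222-5p in USB1 KO_shPARN against Control_shPARN at 1.87.

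The ratio of the arms within a library needs no scaling between libraries. For miR-221 the 5p arm made up 5.57 to 10.8% of the hairpin's mature counts in the hESC libraries and 9.14 to 23.8% in the K562 libraries. For miR-222 the 5p arm made up 0.0225 to 0.119% in the hESC libraries except shPAPD5 library 1, where it was 0.902% (exact 95% interval 0.815 to 0.996%, counting error only), and 0.179 to 1.72% in K562. The hairpins differed in how far the 3p arm prevailed, and for miR-222 every Control K562 library had a larger 5p share than every WT hESC library. For levels 70.8% of all miRNAs did not overlap between these groups. How often ratios of other miRNAs separate without overlap, here or in the comparisons below, was not computed.

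On a log2 scale the 3p/5p ratio of miR-221 was 3.51, 3.31 and 3.23 in WT hESCs, against 2.39, 3.31 and 2.23 in Control K562 cells, and the groups overlapped at Control library 2. It was 4.08, 3.61 and 3.15 in USB1 mutant hESCs, which overlaps WT. In K562 it was 1.72, 1.72 and 2.32 in USB1 KO libraries, overlapping Control, and 1.70, 1.82 and 2.15 in Control_shPARN libraries, all below Control. That difference was -0.75, with a two-sided exact permutation p of 0.1, the smallest that 3 libraries against 3 allow. Set against Control library 3 alone, the differences were -0.34 for Control_shPARN, -0.31 for USB1 KO and 1.12 for WT hESCs, with no test.

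The 3p/5p ratio of miR-222 was 10.57, 10.82 and 12.05 in WT hESCs, against 9.01, 7.69 and 8.99 in Control K562 cells, a difference of 2.58 without overlap. It was 9.70, 11.03 and 10.75 in USB1 mutant hESCs, overlapping WT. The difference from WT was -0.97 without Dox and -0.91 with Dox, again without overlap. WT library 3, with the highest WT ratio, had 10 counts of miR-222-5p. Leaving out single libraries, the difference ranged from -1.26 to -0.52 without Dox and from -1.20 to -0.46 with Dox. In K562 the 3p/5p ratio of miR-222 was 6.41, 7.58 and 7.81 in USB1 KO_shPARN libraries, against 8.43, 8.36 and 8.65 in Control_shPARN libraries, a difference of -1.22 without overlap, and 8.40, 6.95 and 5.76 in USB1 KO libraries, overlapping Control. Each of these 4 differences without overlap had the smallest exact permutation p, 0.1. Set against Control library 3 alone, the difference was 2.15 for WT hESCs, -1.95 for USB1 KO and -0.51 for Control_shPARN.

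The guides of the pair were set against each other in the same way. The log2 ratio of miR-221-3p to miR-222-3p was 0.25, 0.24 and 0.26 in USB1 mutant hESCs, against 0.29, 0.49 and 0.44 in WT hESCs. The mutant libraries lay close together and below every WT library, with a mean difference of -0.16. Without Dox the ratio averaged 0.04 ± 0.08, a difference of -0.37 from WT, and with Dox 0.13 ± 0.11, a difference of -0.28 (SD, n = 3 each). All 3 comparisons share the WT libraries, and each had the exact permutation p of 0.1. With shPAPD5 the ratio was 0.63, 0.12 and 0.16, which overlaps WT.

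In K562 that ratio averaged 0.23 in USB1 KO, -0.02 in Control_shPARN, -0.04 in USB1 KO_shPARN and 0.20 in Control, and no pair of groups compared was free of overlap. Against Control library 3 alone the difference was 0.23 for USB1 KO, -0.031 for Control_shPARN and 0.40 for WT hESCs. The log2 ratio of the 5p arms, miR-221-5p to miR-222-5p, differed by -1.22 with Dox from WT hESCs, by -1.53 in USB1 KO_shPARN from Control_shPARN, and by 2.08 in WT hESCs from Control K562 cells, each without overlap. Leaving out single libraries, the difference with Dox from WT ranged from -1.65 to -0.69. Against Control library 3 alone the difference in the ratio of the 5p arms was 1.44 for WT hESCs, -1.41 for USB1 KO and -0.20 for Control_shPARN. Over the 44 ratio comparisons 11 had no overlap and reached the exact permutation p of 0.1, and each had an adjusted p of 0.4.

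**Figure D4:**
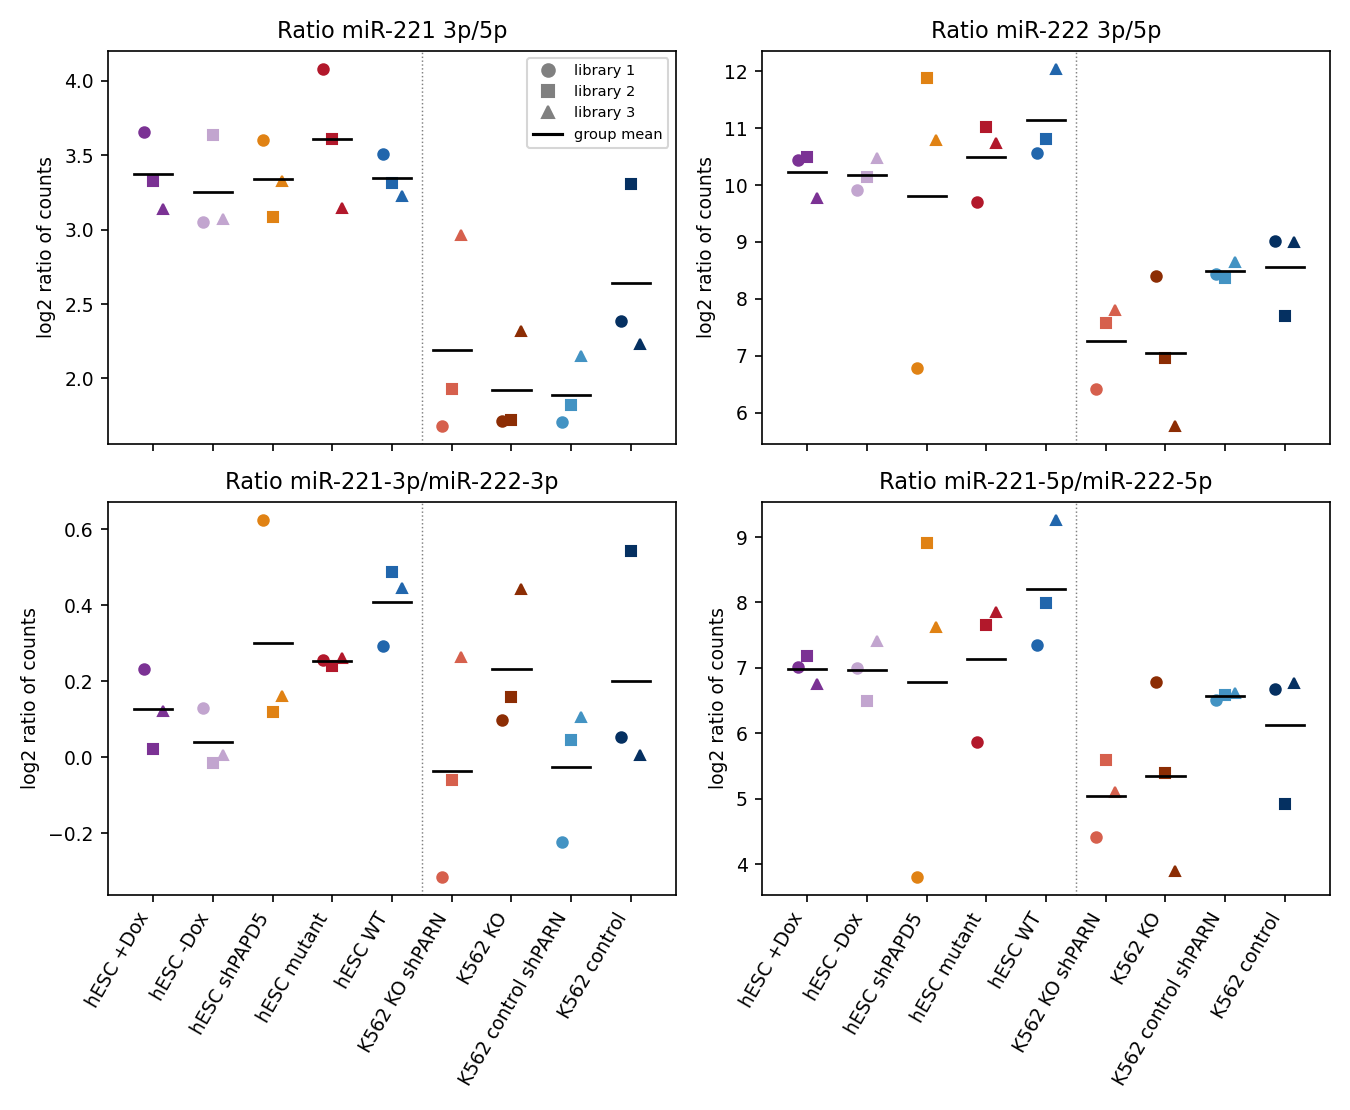
Log2 ratio of counts within each library for the 3p to 5p arm of miR-221 and of miR-222 and for miR-221 to miR-222 by arm, in 9 groups of 3 libraries. Points are libraries, shaped by library number, and bars are group means. USB1 mutant points of miR-221-3p/miR-222-3p lie at 0.24 to 0.26, under the WT points at 0.29 to 0.49, and shPAPD5 library 1 stands at 6.78 for miR-222 3p/5p.

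Over libraries of a line the 4 miRNAs varied together to differing degrees, given as Pearson's r of log2 CPM over libraries that share groups and scaling. In the 12 K562 libraries r was 0.87 between the guides miR-221-3p and miR-222-3p, 0.77 between the arms of miR-221 and 0.89 between miR-221-5p and miR-222-3p. In the 15 hESC libraries r was 0.19 between the guides, 0.68 between the arms of miR-221 and 0.55 between miR-221-5p and miR-222-3p. miR-222-5p had r of -0.33 with its own 3p arm in hESCs and 0.48 in K562. Without shPAPD5 library 1 the hESC value was 0.064, and r between the guides was 0.39. Without Control libraries 1 and 2 the K562 values were 0.34 for the arms of miR-222 and 0.82 for the guides. Among 417 candidates in hESCs, those most like miR-221-3p were miR-103b (0.83), miR-30d-5p (0.83) and miR-30c-5p (0.82), and those most like miR-222-3p were miR-3529-3p (0.83), miR-7-5p (0.82) and miR-342-5p (0.76). Among 418 candidates in K562, those most like miR-221-3p were miR-181b-5p (0.83), miR-1257 (0.80) and miR-145-3p (0.79), and those most like miR-222-3p were miR-7-5p (0.86), miR-579-5p (0.86) and miR-3529-3p (0.85). miR-7-5p and miR-3529-3p were named for miR-222-3p in both lines, and whether these names count separate reads was not tested. Without Control libraries 1 and 2 the K562 r with miR-222-3p was 0.75 for miR-7-5p, 0.86 for miR-579-5p and 0.73 for miR-3529-3p. With miR-221-3p it was 0.72 for miR-181b-5p, 0.72 for miR-1257 and 0.81 for miR-145-3p.

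Other miRNAs that have been described as acting on KIT, or on relatives of p27, were counted beside the pair. Of 5 described as targeting KIT, 4 were tested in hESCs and 3 in K562. In USB1 mutant hESCs none was called, against 7.41% of all miRNAs, with a list median of 0.53 beside 0.04 for all. In USB1 KO K562 cells 1 was called, miR-494-3p, which fell by 3.04 on the log2 scale (SE 0.71, edgeR adjusted p = 0.0231), against 5.11% of all miRNAs, with a list median of 0.63 beside -0.02 for all. Without Control libraries 1 and 2 miR-494-3p stood at -3.18 (edgeR adjusted p = 0.199), so the call was lost, and 0.815% of all miRNAs were called. Between WT hESCs and Control K562 cells 2 of 4 were higher in hESCs, miR-34a-5p by 7.64 (SE 0.54, adjusted p = 1.64e-08) and miR-193a-3p by 2.91 (SE 0.69, adjusted p = 0.00217), and miR-494-3p was lower (-1.84, SE 0.43, adjusted p = 0.00184), where 62.7% of all miRNAs were called. These 3 calls held without Control libraries 1 and 2.

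Of 10 described as targeting p21 or p57, relatives of p27, all were tested in both lines. Apart from miR-92b-3p, which has a locus of its own, these are guides of the miR-17-92 cluster and its paralogs. In USB1 mutant hESCs 1 of the 10 was called, against 7.41% of all miRNAs. This was miR-363-3p, which rose by 1.02 (SE 0.22, adjusted p = 0.0111). In USB1 KO K562 cells none was, against 5.11% of all miRNAs, with a list median of -0.08 beside -0.02 for all miRNAs. Between WT hESCs and Control K562 cells 6 were higher and 3 lower in hESCs, where 32.4% of all miRNAs were higher and 30.3% lower, with a list median of 0.81 beside -0.07 for all. The counts were 4 and 2 without Control libraries 1 and 2, where 40% of all miRNAs were called in either direction. The furthest were miR-363-3p (9.13, SE 0.67), miR-20b-5p (6.35, SE 0.25), miR-106a-5p (3.88, SE 0.22) and miR-92b-3p (3.10, SE 0.22), each higher in hESCs as miR-221-3p and miR-222-3p were, with adjusted p of 8.94e-08 or less.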

How the data were processed

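The deposited tables hold raw counts per mature miRNA, 1 column per library, which the authors made from Trizol RNA and Lexogen small RNA libraries by trimming with cutadapt 2.5, aligning to human miRBase 22 with Bowtie2 2.2.9 without a seed mismatch, and counting with SAMtools 1.3.1. How reads matching several miRNAs were handled is not given in the sources used here. Each table lists only miRNAs with a count in its first column, so only miRNAs found in all tables of a fit were analysed: 1251 of 2067 in hESCs, 1080 of 1935 in K562 and 1068 of 2138 between lines. Adaptor entries, at most 0.206% of a library, were removed. 0 columns were left unused. The Control columns of K562 bear names that equal hESC titles. They were tied to Control by the table that the labels name, and their numbers only name them and pair nothing.

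Counts were fitted by edgeR 4.0.16 (R 4.3.3, TMM, filterByExpr with a minimum count of 10 and total of 15, robust quasi-likelihood), with all groups of a line and no replicate term, on 998, 881 and 905 miRNAs. TMM factors spanned 0.865 to 1.20 in hESCs, 0.863 to 1.35 in K562 and 0.597 to 1.82 between lines. SE is the log2 change over the square root of F, and 95% intervals are 1.96 SE to either side. That multiplier is of the normal distribution, not of the F test, so these intervals, also where drawn, are somewhat narrow. For miR-222-3p in USB1 KO against Control the interval was 0.015 to 1.03, while edgeR's unadjusted p was 0.064. Ratios used a pseudocount of 0.5 and two-sided exact permutation (SciPy 1.17.1), adjusted over 44 tests. Shares carry exact (Clopper-Pearson) intervals, which cover counting error only. Scripts were tested on simulated counts.

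Alternatives were library totals, DESeq2 1.42.0, no filter, a CPM of 10 in 3 libraries, a replicate block, only the 2 groups compared, and leaving out each library. Leaving out Control libraries 1 and 2 together, or shPAPD5 library 1 from the correlations, was chosen after seeing the data. The study describes its replicates as biological, but the labels do not say whether libraries were separate cultures, so part of the spread behind the p-values may be technical. Same-numbered libraries of USB1 KO_shPARN and Control_shPARN deviated together (correlations 0.34, 0.16 and 0.22), so the block is given there, and no other pair of numbered groups met this. The 4 miRNAs, the markers and the lists were chosen with earlier results of these data known. The text names the 4 miRNAs, the 3 miRNAs of mean log2 CPM of at least 3 that correlated best with each guide in each line, and up to 4 called miRNAs of each list.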

Additional observations from a re-analysis of the deposited data

How the results depend on the processing

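Low counts limit miR-222-5p, which had 6 to 16 counts in each Control and Control_shPARN library and 10 to 38 in each WT hESC library, and USB1 KO library 3 was shallow. The count of the 4 miRNAs called in USB1 KO against Control K562 cells, 0 in the reported analysis, was 2 with library totals, 1 under the filter of 10 CPM (which drops miR-222-5p) and 3 with DESeq2, and 0 to 1 when single libraries were left out. In USB1 KO_shPARN against Control_shPARN the count of 1 became 0 with the replicate block and 0 with only the 2 groups compared, and was 0 to 1 when single libraries were left out. It was also 0 with the CPM filter, which removes miR-222-5p from the test. The call held with DESeq2 (1.88, adjusted p = 0.0190), without a filter (1.86, adjusted p = 0.0412) and with library totals (1.91, adjusted p = 0.0430). For the USB1 loss difference between lines it became 1 with library totals (miR-221-3p -0.74, adjusted p = 0.0427). The causes were not tested. Between WT hESCs and Control K562 cells the count of 4 was 3 with library totals, with the CPM filter and without Control libraries 1 and 2. In the other 9 comparisons it stayed at 0 under every alternative run. Where Control libraries 1 and 2 were left out, the remaining one was assumed to vary like the other groups.

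Directions of uncalled changes turned in 4 cases outside single-library omissions: miR-222-5p with against without Dox (0.12 with the replicate block), miR-221-3p in Control_shPARN against Control (-0.014 with library totals), miR-221-3p in USB1 KO_shPARN against USB1 KO (-0.11 with library totals) and the miR-222-3p interaction (0.21 without Control libraries 1 and 2, an alternative chosen after seeing the marker levels). Leaving out single libraries, uncalled changes crossed 0 over these ranges. For miR-221-3p the range was -0.032 to 0.21 in USB1 KO_shPARN against USB1 KO and -0.13 to 0.0079 in mutant against WT. For miR-221-5p it was -0.40 to 0.18 in USB1 KO_shPARN against USB1 KO, -0.27 to 0.11 with against without Dox, -0.20 to 0.043 with Dox against WT, -0.20 to 0.18 without Dox against WT and -0.051 to 0.18 in shPAPD5 against WT. For miR-222-3p it was -0.31 to 0.10 for the interaction and -0.068 to 0.082 with against without Dox. For miR-222-5p it was -0.34 to 0.68 in USB1 KO_shPARN against USB1 KO, -0.94 to 0.069 for the interaction, -0.27 to 0.14 with against without Dox and -0.59 to 2.63 in shPAPD5 against mutant. Of 364 alternative ratio values 32 turned sign, all by leaving out libraries. One of these, the ratio of the 5p arms in Control_shPARN against Control, turned to -0.20 without Control libraries 1 and 2. The replicate block changed no call other than the one named, and it could not be fitted for comparisons with Control, whose columns carry no sample numbers.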
